A study of Mus musculus with 8 samples.

Results

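Aminoacyl-tRNA synthetases are the enzymes that attach each amino acid to its transfer RNA, and the 36 genes described here encode enzymes of this kind. The genes were taken from the deposited gene count table by symbol, and all 36 listed symbols were found among its 18306 genes. They comprise 18 genes of cytosolic enzymes, 16 genes of mitochondrial enzymes, whose symbols end in 2, and Gars and Kars, which serve both compartments. The list does not hold every mitochondrial synthetase gene. The libraries came from C3H10T1/2, an established mesenchymal cell line of mouse embryo origin that can be driven towards bone, fat, cartilage or muscle in culture. In both groups serum was withdrawn for 24 h, and the cells then received for a further 24 h either 5 µM sphingosine 1-phosphate (S1P, a signalling lipid with its own family of cell surface receptors) or with the vehicle, 0.1% fatty acid-free bovine serum albumin. There were 4 vehicle libraries, replicates 1 to 4, and 4 S1P libraries, replicates 5 to 8, each of total RNA. No label states that replicates are separate cultures, so the p-values rest on the spread among these libraries, which may be technical.

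Cytosolic synthetases charge the tRNAs that nuclear-encoded messages use, and a separate set, encoded in the nucleus and imported, charges the tRNAs inside mitochondria. Several cytosolic synthetases are held together with the scaffold proteins encoded by Aimp1, Aimp2 and Eef1e1 in the multisynthetase complex. Many cytosolic synthetase genes are known targets of ATF4, the transcription factor of the integrated stress response, which also acts on genes of amino acid synthesis and transport. The synthetases fall into class I and class II by the fold of their catalytic domain.

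Each library held 13750303 to 13761544 counts, and 11844 genes had enough counts to be tested, all 36 synthetase genes among them. Counts of the cytosolic genes ranged from 303 to 7021 per library and those of the mitochondrial genes from 28 to 1702. Values below are CPM, that is counts scaled to a common library size with composition factors, fold changes are S1P over vehicle from edgeR's quasi-likelihood fit, and a gene was called when its Benjamini-Hochberg adjusted p over all genes tested was under 0.05. All 11 fibroblast markers listed were tested, among them Vim at 3230 to 5318 CPM, with Twist1 the lowest at 16.6 to 24.9 CPM. None of 5 leukocyte and 4 endothelial markers had enough counts to be tested. Their highest counts in any library were 14 for Cd68 and 6 for Pecam1. Of 4 epithelial markers only Cdh1 was among the genes counted, at 1.11 to 2.83 CPM. In bulk RNA of this kind, fewer cells of a type and less RNA per cell cannot be told apart.

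After S1P, 8 of the 18 cytosolic synthetase genes rose and none fell, Gars rose as well, and none of the 16 mitochondrial genes passed the test in either direction. The largest increases were those of Cars, 2.15-fold, and Aars, 1.88-fold, and the other called genes rose 1.365-fold to 1.69-fold. Over all genes tested, 5.6% were called higher and 2.9% lower, 8.5% in all. The median log2 fold change was 0.45 for the cytosolic genes, 0.02 for the mitochondrial genes and -0.04 for all genes tested. The log2 fold change was above 0 in 17 of 18 cytosolic genes and in 8 of 16 mitochondrial genes. At an unadjusted p under 0.05 there were 11 higher and 0 lower cytosolic genes and 0 mitochondrial genes (edgeR), against 13.2% higher and 11.7% lower over all genes. DESeq2 called 10 cytosolic and 0 mitochondrial genes and limma-voom 8 and 0, with 0 lower in both tools. Over all genes, DESeq2 called 8.16% higher and 6.79% lower, and limma-voom called 697 genes higher and 328 lower, beside 663 and 344 with edgeR.

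**Figure D1:**
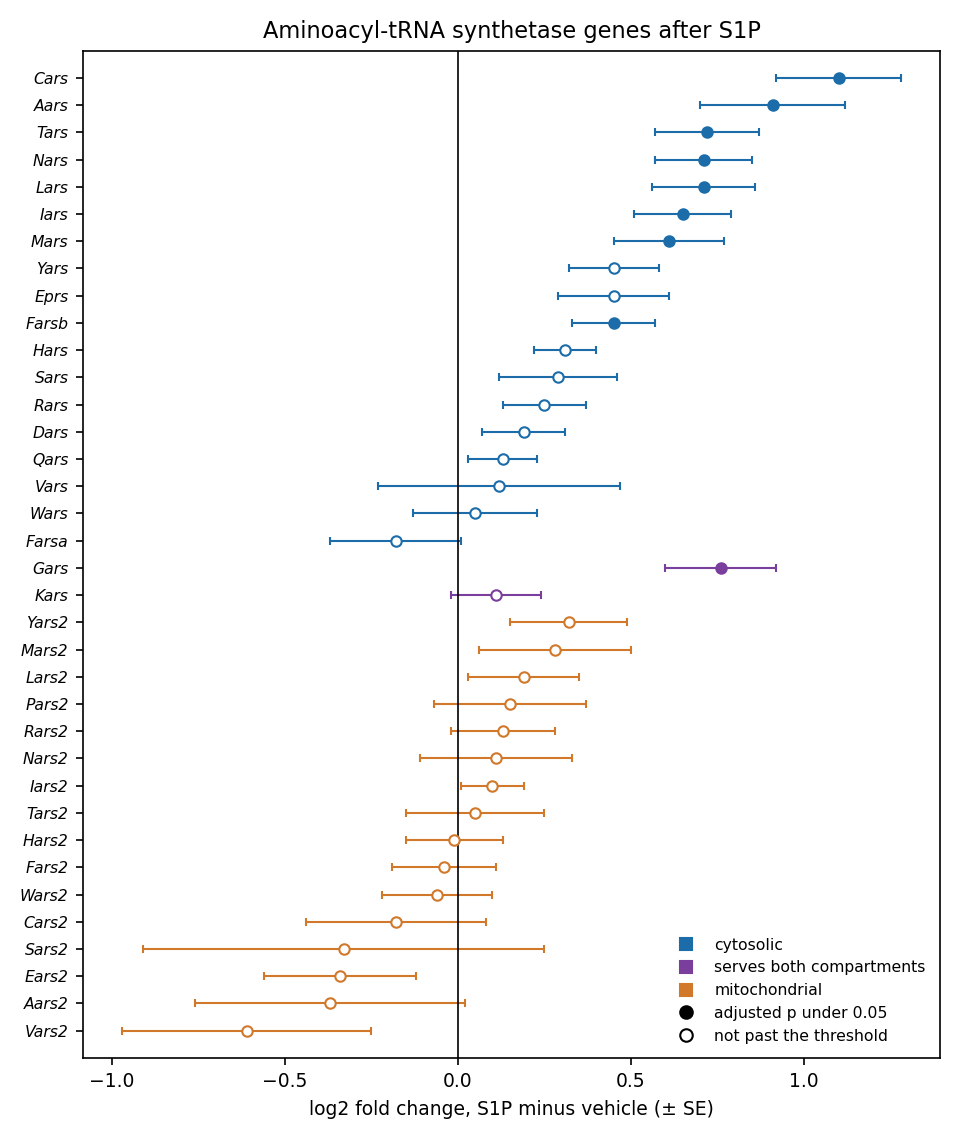
Log2 fold change of each synthetase gene, S1P minus vehicle, with its standard error, from 4 libraries per group. Filled points passed an adjusted p of 0.05. The 9 filled points are 8 cytosolic genes and Gars, and the mitochondrial genes lie on both sides of 0, from -0.61 to 0.32.

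Cars, which charges cysteine (chromosome 7, 150742935 to 150786195 in mm9), had 21.5, 33.8, 28.3 and 31.8 CPM in vehicle replicates 1 to 4 and 48.15, 76.9, 59.1 and 64.0 CPM in S1P replicates 5 to 8. The groups did not overlap, and the lowest S1P library, replicate 5, lay well above the highest vehicle library. The mean went from 28.9 ± 5.40 to 62.05 ± 11.9 CPM (SD, 4 libraries each; log2 fold change 1.10, SE 0.18, edgeR adjusted p = 0.00709). The call held whichever of the 8 libraries was left out.

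Aars, which charges alanine and clears serine attached by mistake (chromosome 8, 113556844 to 113581764), had 97.0, 122, 91.1 and 144.5 CPM in vehicle and 171, 294, 202 and 188 CPM after S1P. The groups did not overlap, and S1P replicate 6 stood highest. The log2 fold change was 0.91 (SE 0.21, edgeR adjusted p = 0.026), but of 8 leave-one-out fits it passed in only 2, namely without vehicle replicate 4 and without S1P replicate 5 (adjusted p of up to 0.0735 in the others). Nars, the asparagine enzyme (chromosome 18, 64659119 to 64676411), had 181, 196, 181 and 145.5 CPM in vehicle and 267.5, 339.7, 295 and 248 CPM after S1P. Every S1P library was above every vehicle library, the log2 fold change was 0.71 (SE 0.14, edgeR adjusted p = 0.0130), and the call held in each of the 8 fits.

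The multisynthetase complex holds 3 of the called genes, those for leucine, isoleucine and methionine. Lars, whose product is also known as a leucine sensor upstream of mTORC1 (chromosome 18, 42361804 to 42421981), had 111, 129, 111 and 84.6 CPM in vehicle and 165, 208, 179 and 162 CPM after S1P. Vehicle replicate 4 was the lowest library and S1P replicate 6 the highest, with no overlap between groups (log2 fold change 0.71, SE 0.15, edgeR adjusted p = 0.0174; up to 0.0668 when S1P replicate 6 or 7 was left out). Iars (chromosome 13, 49777269 to 49829836) had 108, 144, 130.2 and 124 CPM in vehicle and 168, 239, 203 and 187 CPM after S1P, again without overlap (log2 fold change 0.65, SE 0.14, edgeR adjusted p = 0.0192). Iars did not pass when vehicle replicate 1 or S1P replicate 6, 7 or 8 was left out (highest adjusted p 0.0672). Mars, which charges both the initiator and the elongator methionine tRNA (chromosome 10, 126733077 to 126749042), had 61.1, 72.9, 71.9 and 93.6 CPM in vehicle and 97.2, 142, 104 and 114 CPM after S1P. For Mars the groups were separated only narrowly, by vehicle replicate 4 at 93.6 and S1P replicate 5 at 97.2 CPM. Its log2 fold change of 0.61 (SE 0.16) lay at the threshold (edgeR adjusted p = 0.04997), and the call held in 1 of the 8 fits, that without vehicle replicate 4. The other complex members, Dars, Eprs, Kars, Qars and Rars, did not pass, so 3 of 8 complex members were called, beside 6 of the 12 cytosolic or dual genes outside it.

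Tars, the threonine enzyme (chromosome 15, 11313218 to 11329613), had 77.1, 90.75, 89.7 and 88.6 CPM in vehicle and 111, 175, 153.5 and 129 CPM after S1P. The vehicle libraries lay close together and the S1P libraries spread widely above them (log2 fold change 0.72, SE 0.15, edgeR adjusted p = 0.0176; up to 0.0596 when vehicle replicate 1 or S1P replicate 6 or 7 was left out). Gars, which charges glycine in both compartments from a single gene (chromosome 6, 54987795 to 55029698), had 139, 200.3, 174 and 149 CPM in vehicle and 234, 345, 277 and 265 CPM after S1P, without overlap (log2 fold change 0.76, SE 0.16, edgeR adjusted p = 0.0180). Gene counts do not separate its cytosolic and mitochondrial forms. Kars, the lysine enzyme that also serves both compartments, had 123, 157.5, 146 and 178 CPM in vehicle and 145, 177, 159 and 169 CPM after S1P, and these ranges overlapped (log2 fold change 0.11, SE 0.13, edgeR adjusted p = 0.641).

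**Figure D2:**
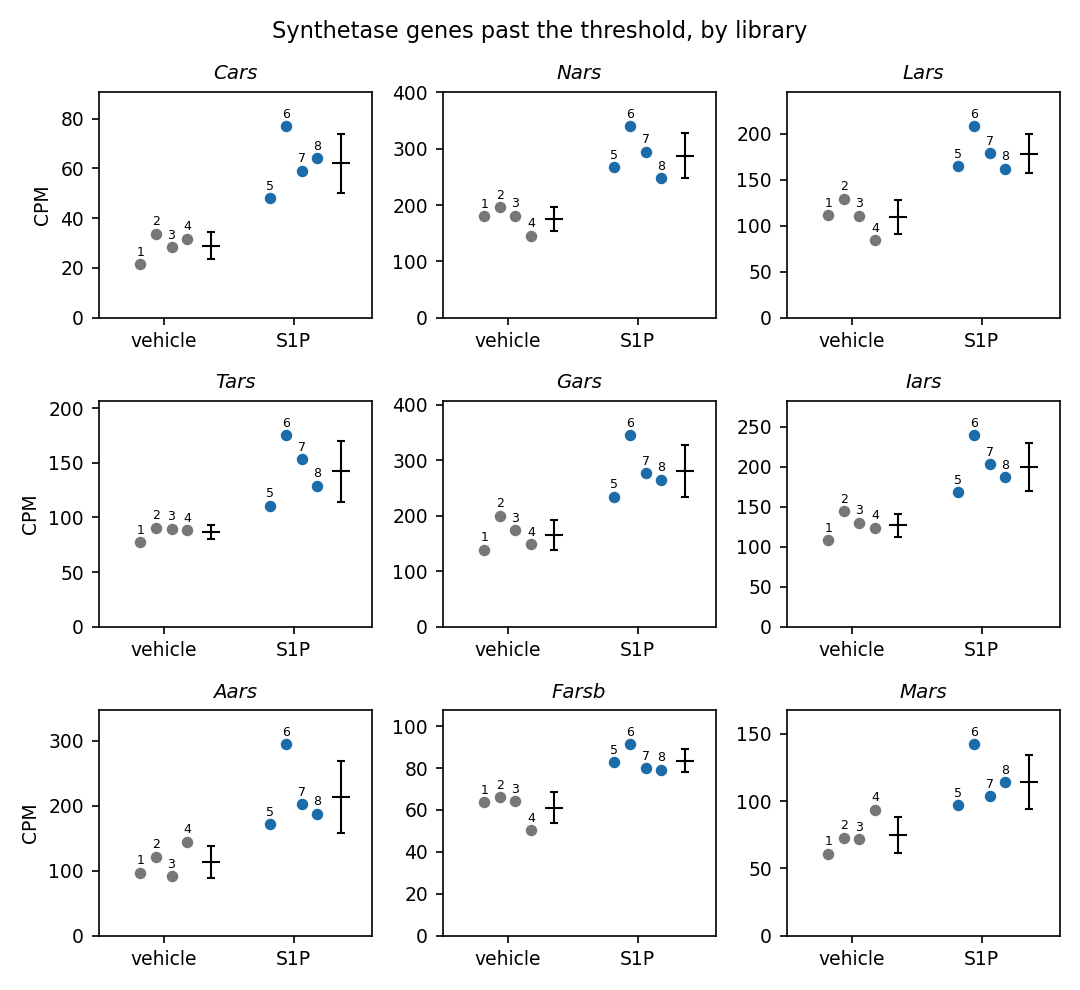
CPM of the 9 called synthetase genes in each library (points, numbered by replicate), with the group mean and SD (n = 4) as a dash and bar. No gene's groups overlap, and S1P replicate 6 is the highest library for each of the 9.

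The paired subunits of the phenylalanine enzyme gave unlike values. Farsb, the beta subunit (chromosome 1, 78414333 to 78485634), had 63.7, 66.3, 64.15 and 50.3 CPM in vehicle and 82.95, 91.3, 80.05 and 79.3 CPM after S1P (log2 fold change 0.45, SE 0.12, edgeR adjusted p = 0.0436). Farsa, the alpha subunit, had 35.2, 33.3, 34.8 and 60.6 CPM in vehicle and 37.97, 36.8, 36.35 and 33.9 CPM after S1P, so that 1 vehicle library stood far above the other 7. The log2 ratio of Farsb to Farsa was -0.27 in vehicle replicate 4, 0.85 to 0.99 in the other vehicle libraries and 1.13 to 1.31 after S1P. The log2 fold change of Farsa was -0.18 with all libraries and 0.07 without vehicle replicate 4 (edgeR adjusted p = 0.598 and 0.561), while Farsb was called in that fit (log2 fold change 0.37, edgeR adjusted p = 0.0170) and in none of the other 7 leave-one-out fits (adjusted p of up to 0.15).

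Of the 10 cytosolic genes that did not pass, Yars and Eprs had the largest log2 fold changes, 0.45 each. Yars, the tyrosine enzyme, had 76.6, 76.8, 64.5 and 84.4 CPM in vehicle and 102, 122.5, 96.9 and 91.7 CPM after S1P, without overlap (SE 0.13, edgeR adjusted p = 0.0594). Eprs, the fused glutamate and proline enzyme, had 275, 366, 336 and 269 CPM in vehicle and 328, 510.3, 452.5 and 405 CPM after S1P, with S1P replicate 5 inside the vehicle range (SE 0.16, edgeR adjusted p = 0.128). The histidine enzyme Hars differed little between libraries, at 64.4 to 67.5 CPM in vehicle and 75.4 to 89.3 CPM after S1P (log2 fold change 0.31, SE 0.09, edgeR adjusted p = 0.0776). Hars and Yars passed without vehicle replicate 4 (edgeR adjusted p = 0.0400 and 0.0234) and in DESeq2 (adjusted p = 0.0234 and 0.0257).

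Vars, the valine enzyme, had 46.0, 67.0, 61.8 and 164 CPM in vehicle and 85.55, 106, 81.0 and 95.9 CPM after S1P. Vehicle replicate 4 alone was above the S1P libraries, and without it the log2 fold change went from 0.12 to 0.66 (edgeR adjusted p = 0.850 and 0.0196). The span of Vars shares 1078 bases with D17H6S56E-5, a gene with a higher mean count (4857 against 1216), so reads of the shared stretch could belong to either. Wars, the tryptophan enzyme, is known as an interferon-inducible synthetase, and had 47.45, 34.6, 33.15 and 49.2 CPM in vehicle and 51.8, 45.1, 36.2 and 37.7 CPM after S1P. Its groups overlapped (log2 fold change 0.05, SE 0.18, edgeR adjusted p = 0.867). Of 16 tested interferon-inducible genes listed beside it, 2 were lower and 14 did not pass, against 2.9% lower over all genes. The log2 fold change was below 0 in all 16, with a median of -1.01. At an unadjusted p under 0.05, 11 were lower (edgeR), against 11.7% over all genes. The mean log2 CPM of this list nevertheless overlapped between groups, at 5.06 to 6.37 in vehicle and 4.07 to 5.32 after S1P. The called ones were Psmb8, an immunoproteasome subunit (log2 fold change -1.77), and Tap1, a peptide transporter of antigen processing (log2 fold change -0.93; edgeR adjusted p = 0.0166 and 0.00845). Psmb8 lost its call when S1P replicate 6 or 8 was left out (highest adjusted p 0.0672). The remaining cytosolic genes, Sars, Rars, Dars and Qars, had log2 fold changes of 0.13 to 0.29 (edgeR adjusted p of 0.251 to 0.436).

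The 12 cytosolic or dual genes known in mouse or human cells as ATF4 targets, a list put together from general knowledge, were Aars, Cars, Eprs, Gars, Iars, Lars, Mars, Nars, Sars, Tars, Wars and Yars. Of these, 8 rose and 4 did not pass, against 5.6% of all genes called higher, with a median log2 fold change of 0.68. Of the other 8, Farsb rose and 7 did not pass, with a median of 0.16. By class of catalytic domain, 4 of 9 class I genes and 5 of 10 class II genes rose (Eprs, which joins both classes, is left out), with medians of 0.45 and 0.38. No test was made between these groups, because the members were chosen with results of these data known.

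Promoter sequence was available for 26 of the 36 genes (RefSeq, build GRCm38.p6, 250 bases before to 50 bases after the annotated start). The letters TGATGNAA, the core of the C/EBP-ATF response element that ATF4 binds with a C/EBP partner, were searched on both strands. They were found in 5 of the 26 genes, Aars, Gars, Iars, Tars and Yars, and in 3.97% of all 32851 promoter windows of the same length. Here and for the motifs below, members were counted by gene, with a match in any of its windows, and the background by single window. The shares are therefore not the same measure. Among the called genes, 4 of the 5 with a promoter sequence held the letters, and among the genes that were not called, 1 of 21 did, namely Yars. Most of these 21 were mitochondrial, the others being Dars, Eprs, Farsa, Kars, Qars, Sars and Yars. The contrast of called with uncalled genes is therefore mixed with that of the compartments. The called genes Cars, Lars, Mars and Nars had no entry. The stretches around the matches are shown because many synthetase genes are known ATF4 targets. They are written 5′ to 3′ on the strand of the gene, with the match in capitals, which reads as the reverse complement in all but Yars, and the position counts from the start site to the first base of the match.
Aars, chr8:111033704-111033763, + strand, match at -112: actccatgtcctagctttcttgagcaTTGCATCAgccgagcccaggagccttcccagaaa
Aars, chr8:111033825-111033867, + strand, match at 10: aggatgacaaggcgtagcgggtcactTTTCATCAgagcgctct
Gars, chr6:55037945-55038000, + strand, match at -30: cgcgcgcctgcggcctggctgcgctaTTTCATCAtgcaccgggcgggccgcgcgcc
Iars, chr13:49682111-49682155, + strand, match at 8: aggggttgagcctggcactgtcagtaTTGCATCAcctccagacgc
Tars, chr15:11399659-11399699, - strand, match at -15: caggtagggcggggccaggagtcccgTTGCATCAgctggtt
Yars, chr4:129189880-129189928, + strand, match at 4: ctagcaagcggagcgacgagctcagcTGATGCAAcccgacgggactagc

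All 6 matches but that at -112 in Aars lay within 30 bases of the start site. The letters TGATGCAA, in either direction, formed 4 of the 6 matches, and the second match of Aars and that of Gars read TTTCATCA. The E-box letters CACGTG, which MYC and related factors bind, were found in Aars, Iars, Tars, Farsb and Ears2, that is in 4 of the 5 called and 1 of the 21 other genes, and in 7.15% of all windows. Most of those 21 were mitochondrial genes, as Ears2 is. The interferon-stimulated response element, searched as the letters GAAA, any 2 bases and GAAA again, was found in Qars alone among the members and in 3.44% of all windows, and Wars had no entry. All 3 motifs were searched on both strands, and a match of letters does not show that a factor binds there.

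None of the 16 mitochondrial genes passed, beside 8.5% of all genes called in either direction. With only 16 genes, none called is not far from that share. Values of the 16 overlapped between the groups in every case. Most of them had fewer counts than the cytosolic genes, and whether this hid changes of the cytosolic size was not tested. Groups that did not overlap, with S1P higher, were seen in 11 of 18 cytosolic genes, 0 of 16 mitochondrial genes and 11.9% of all genes, and groups apart with S1P lower in 0 members and 7.21% of all genes. Iars2, the isoleucine enzyme, was by far the most abundant mitochondrial member at 104 to 117 CPM in vehicle and 113 to 124 CPM after S1P (log2 fold change 0.10, SE 0.09, edgeR adjusted p = 0.533). It shares 2418 bases of its span with Rab3gap2, and an annotated transcript of that gene matches 2034 bases of Iars2 on the opposite strand, so the values rest on the counting having used strand, as the name of the deposited table (sense counts) has it. Hars2, whose start lies beside that of Hars and whose span overlaps it by 598 bases, had 37.5, 34.7, 35.6 and 24.8 CPM in vehicle and 30.6, 35.25, 32.4 and 33.5 CPM after S1P (log2 fold change -0.01, SE 0.14, edgeR adjusted p = 0.973).

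The largest log2 fold changes among the mitochondrial genes were those of Vars2, at -0.61, and Aars2, at -0.37, and both rested on a single library. Vars2, the valine enzyme, had 9.59, 9.28, 7.10 and 23.0 CPM in vehicle and 7.65, 10.4, 5.95 and 7.98 CPM after S1P. Without vehicle replicate 4 its log2 fold change was -0.11 in place of -0.61 (edgeR adjusted p = 0.744 and 0.326). Aars2, the alanine enzyme, had 5.97, 3.41, 3.11 and 10.97 CPM in vehicle and 5.49, 4.94, 3.82 and 3.95 CPM after S1P, and its log2 fold change went from -0.37 to 0.13 without that library (edgeR adjusted p = 0.590 and 0.785). Sars2, the serine enzyme, had 2.06, 2.08, 2.66 and 12.4 CPM in vehicle and 4.26, 4.07, 2.64 and 4.31 CPM after S1P, and its log2 fold change went from -0.33 to 0.75 (edgeR adjusted p = 0.749 and 0.0715). The other mitochondrial genes, Cars2, Ears2, Fars2, Lars2, Mars2, Nars2, Pars2, Rars2, Tars2, Wars2 and Yars2, had log2 fold changes of -0.34 to 0.32 and adjusted p-values of 0.273 to 0.891 (edgeR).

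The values of vehicle replicate 4 varied with GC content. This library was the highest vehicle library for 9 of 16 mitochondrial and 7 of 18 cytosolic genes and the lowest for 5 and 6. Its log2 deviation from the mean of the other vehicle libraries correlated with the GC content of the longest coding transcript at r = 0.79 over the 36 genes, 0.92 over the 18 cytosolic and 0.76 over the 16 mitochondrial genes, beside 0.77 over 11271 tested genes, all within the same library. At the high end, Sars2, Vars, Vars2 and Aars2 had a GC content of 58.6% to 60.9% and deviations of 1.40 to 2.45. Without this library 11 cytosolic genes, Gars and none of the mitochondrial genes were called higher and none lower, against 9.49% higher and 6.05% lower over all genes, and the median log2 fold change was 0.45 for cytosolic and 0.09 for mitochondrial genes. Without S1P replicate 5 as well, 11 cytosolic genes and Gars were called higher, against 9.92% higher and 7.87% lower over all genes. The part of GC content in the synthetase values was not tested.

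**Figure D3:**
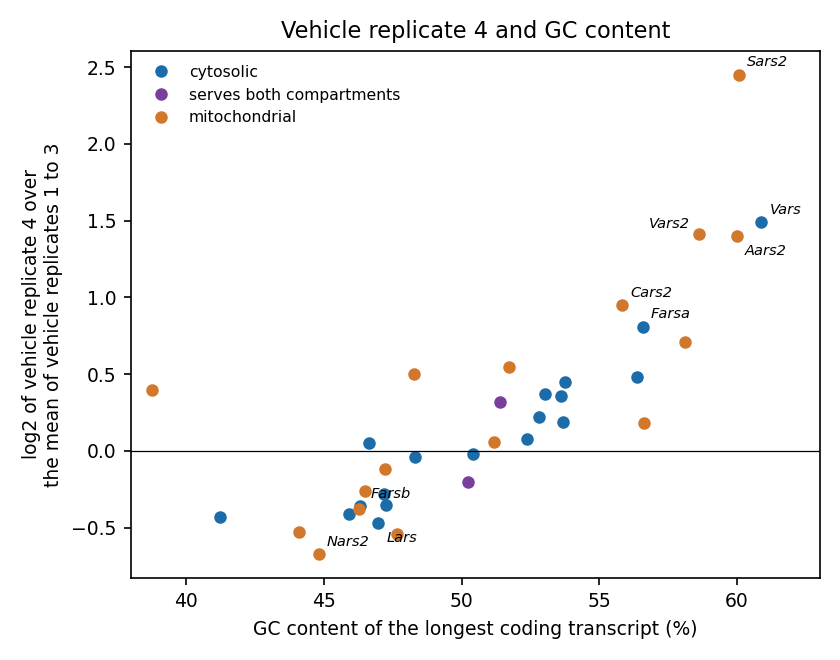
Log2 ratio of vehicle replicate 4 to the mean of vehicle replicates 1 to 3 for each of the 36 genes, against the GC content of its longest coding transcript. The ratio is below 0 for most genes under 48% GC and reaches 2.45 for Sars2 at 60.1%.

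Ptrh2, a mitochondrial peptidyl-tRNA hydrolase listed among the partner genes of the synthetases, rose (log2 fold change 0.49, edgeR adjusted p = 0.0242), a call lost in 5 of 8 leave-one-out fits, all but those without vehicle replicate 3, vehicle replicate 4 or S1P replicate 7. The 10 tested genes of that partner list had a median log2 fold change of 0.06. None of 15 tested mitochondrial translation factors passed (edgeR), beside 5.6% of all genes called higher and 2.9% lower. In so short a list, none called is not far from those shares. At an unadjusted p under 0.05 (edgeR), 0 were higher and 1 lower, against 13.2% and 11.7% over all genes. The median log2 fold change of the 15 was 0.05. The most abundant of them, the elongation factor gene Gfm1 and the initiation factor gene Mtif2, had log2 fold changes of 0.11 and 0.18 (edgeR adjusted p = 0.571 and 0.454).

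Within a library, the mean log2 CPM of the 18 cytosolic genes was 6.36, 6.55, 6.42 and 6.57 in vehicle replicates 1 to 4 and 6.82, 7.13, 6.90 and 6.85 in S1P replicates 5 to 8. That of the 16 mitochondrial genes was 3.53, 3.44, 3.37 and 3.84 and then 3.59, 3.60, 3.49 and 3.60. The difference between these means was 2.73 to 3.11 in vehicle and 3.23 to 3.53 after S1P, so the groups were apart in it. The log2 ratio of the cytosolic to the mitochondrial gene for the same amino acid overlapped between the groups in 13 of 17 pairs, those of the called genes Aars, Lars, Mars, Nars and Tars among them. The groups were apart, with S1P higher, in 4 pairs, those of Cars, Iars, Vars and Farsb with Cars2, Iars2, Vars2 and Fars2. The ratio went from 1.17 to 2.03 in vehicle to 2.66 to 3.42 after S1P for cysteine, and from -0.11 to 0.32 to 0.57 to 0.95 for isoleucine. For arginine it was 1.65 to 2.00 and 1.91 to 2.09, and for tryptophan 0.99 to 1.87 and 1.24 to 1.81, with overlap in both. Per kilobase of the longest coding transcript, the median level was 28.0 CPM for cytosolic and 3.43 CPM for mitochondrial genes in vehicle, and 39.7 and 3.39 CPM after S1P. On that scale, levels in vehicle ran from 8.96 CPM (Cars) to 64.0 CPM (Nars) among cytosolic genes and from 0.352 CPM (Mars2) to 20.3 CPM (Iars2) among mitochondrial genes. The longest Mars2 transcript, of 11290 bases, exceeds the deposited span of the gene (chromosome 1, 55293821 to 55297102 in mm9). Its level per kilobase is therefore understated for the stretch counted.

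S1P replicate 6 held the highest value of all 8 libraries for each of the 9 called genes, and for 12 of the 18 cytosolic genes. The ATF4 gene itself had 127, 135, 156 and 140.4 CPM in vehicle and 220.1, 254, 243 and 214 CPM after S1P, without overlap (log2 fold change 0.74, SE 0.11, edgeR adjusted p = 0.0046). The median log2 fold change of 27 tested ATF4 factors and effectors was 0.74. Of these, 9 rose, none fell and 18 did not pass, against 5.6% higher and 2.9% lower over all genes. By the naming rule the 9 were led by Trib3, a pseudokinase that feeds back on ATF4 (log2 fold change 1.98), and the enzyme genes Aldh1l2, Psat1 and Mthfd2 (1.96, 1.84 and 1.66). Asns, chosen after its value was seen, makes asparagine, the substrate of Nars, and had 42.4, 82.1, 68.1 and 50.9 CPM in vehicle and 102, 236, 175 and 166 CPM after S1P (log2 fold change 1.48, SE 0.28, edgeR adjusted p = 0.0117). Cth, which makes cysteine, the substrate of Cars, was likewise picked with its value known and had 3.05 to 6.14 CPM in vehicle and 7.78 to 12.5 CPM after S1P (log2 fold change 1.09, edgeR adjusted p = 0.0383). The remaining called members were Atf4, Atf5 and Bcat1 (log2 fold changes of 0.74, 1.25 and 1.65). The calls of Trib3, Cth, Atf5 and Bcat1 were lost in 5, 6, 6 and 3 of 8 leave-one-out fits, those without S1P replicate 6, 7 or 8 among them for each gene. Ddit3, the stress factor CHOP, whose span overlaps that of Mars by 468 bases, had 25.97 to 50.05 CPM in vehicle and 29.3 to 39.4 CPM after S1P (log2 fold change -0.02, edgeR adjusted p = 0.952).

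The ATF4 list had a mean log2 CPM of 4.17, 4.73, 4.56 and 4.87 in vehicle and 5.10, 5.79, 5.38 and 5.29 after S1P. In this list too, S1P replicate 6 was the highest library and S1P replicate 5 the lowest of the S1P group. The median log2 fold change of 14 tested amino acid transporter genes was 0.14. Among them, 12 did not pass and 2 rose, against 5.6% of all genes. These were Slc7a5, which carries leucine and other large neutral amino acids (log2 fold change 1.89, edgeR adjusted p = 0.0165), and Slc7a1, which carries arginine and lysine (log2 fold change 0.78, edgeR adjusted p = 0.0144). The call of Slc7a5 was lost without S1P replicate 6 (adjusted p = 0.0517).

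**Figure D4:**
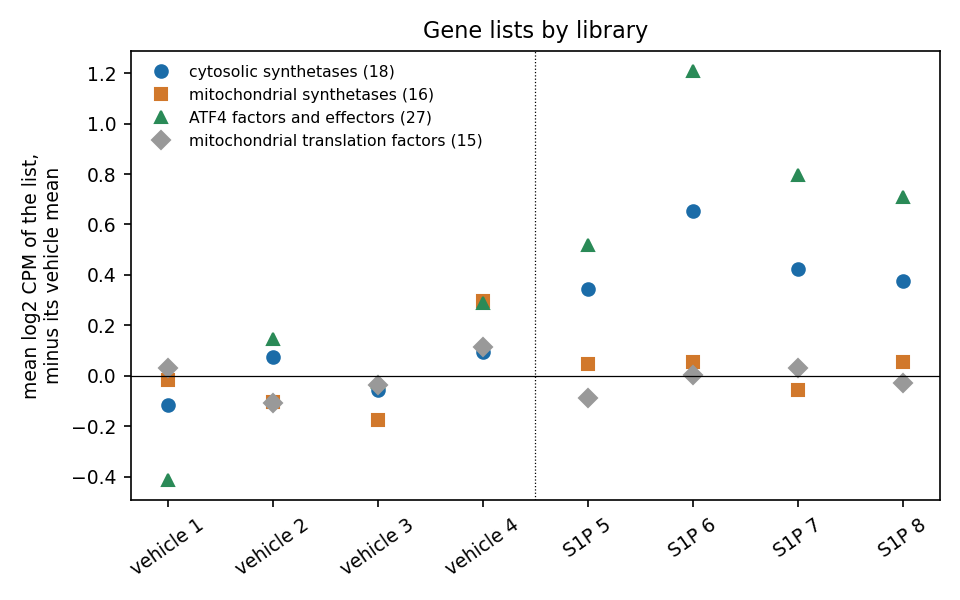
Mean log2 CPM of 4 gene lists in each library (cytosolic synthetases, mitochondrial synthetases, ATF4 factors and effectors, mitochondrial translation factors), each minus its own mean over the vehicle libraries. The cytosolic synthetases and the ATF4 list lie above all their vehicle values in each S1P library and are highest in S1P replicate 6, whereas the mitochondrial synthetases reach their highest value in vehicle replicate 4.

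The other lists concern tRNA supply and translation. The complex scaffolds Aimp1, Aimp2 and Eef1e1 had log2 fold changes of 0.32, -0.04 and 0.45, and none of the 3 passed (edgeR adjusted p = 0.141, 0.928 and 0.111). At an unadjusted p under 0.05, 2 of the 3 were higher (edgeR), against 13.2% of all genes. Of 34 tested genes of tRNA transcription, processing and export, 2 rose and 32 did not pass, a share close to the 5.6% of all genes called higher, with a median log2 fold change of 0.16. These were Rpp30, a subunit of ribonuclease P, and Polr3k, a subunit of RNA polymerase III (log2 fold changes of 0.64 and 0.52, edgeR adjusted p = 0.0352 and 0.0366), and each lost its call in 5 of 8 leave-one-out fits, those without vehicle replicate 1 or S1P replicate 6, 7 or 8 among them. Xpot, the tRNA exporter, chosen after its value was seen, had 129 to 181 CPM in vehicle and 176 to 244.5 CPM after S1P (log2 fold change 0.42, edgeR adjusted p = 0.119). None of 18 initiation factors and eIF2 kinases and none of 11 elongation and termination genes passed (edgeR). At an unadjusted p under 0.05 (edgeR), 4 and 1 were higher and 0 and 1 lower. The shares of all genes were 13.2% higher and 11.7% lower. Among the initiation and elongation lists the most abundant were Eif4a1 and Eif4b (log2 fold changes of 0.23 and 0.00) and Eef1a1 and Eef2 (-0.26 and -0.56). Of 15 tested genes around MYC and mTORC1, 14 did not pass and 1 rose, a share close to the 5.6% of all genes called higher. The most abundant were Npm1 and Ncl, with log2 fold changes of 0.32 and 0.43 (edgeR adjusted p = 0.385 and 0.122), and the one that rose was Odc1, of polyamine synthesis, named with its value known (log2 fold change 0.61, edgeR adjusted p = 0.0248).

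The calls among the synthetases, like those over all genes, depended on single libraries. Leaving out S1P replicate 6 or 7 brought the called cytosolic genes from 8 to 2 each time, and leaving out S1P replicate 8 to 4. The count was 3 when vehicle replicate 1 was left out, 5 for vehicle replicate 2 or 3, 6 for S1P replicate 5 and 11 for vehicle replicate 4. Over all genes, those called higher went from 663 to 333, 408 and 360 without S1P replicate 6, 7 and 8. They came to 489, 461, 582 and 1133 without vehicle replicates 1 to 4 in turn, and to 583 without S1P replicate 5. Gars lost its call when S1P replicate 6, 7 or 8 was left out (highest edgeR adjusted p 0.0622). Only Cars and Nars were called in all 8 of these fits, and in each fit the log2 fold changes of the 9 called genes stayed between 0.37 and 1.21. In simulated counts for 11748 genes of this comparison, 10.2% of 49 1.5-fold and 43.8% of 48 2-fold changes were recovered. Fewer genes were changed in the simulation than the 1007 called in these data, so recovery here may differ.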

How the data were processed

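Total RNA of 8 C3H10T1/2 samples was sequenced. The authors deposited whole-number read counts per Ensembl gene with gene symbols and mm9 coordinates, and STAR 2.5.3a and build mm9 are named in the submitters' processing notes. The name of the deposited table marks it as sense counts, and the counting tool, its annotation and the library's strand protocol were not found in the labels. The totals differ by less than 0.1%, and how they came to be alike is not stated, so the depth before deposit is unknown.

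Columns were matched to samples by title. Genes were kept with filterByExpr (minimum count of 10) of edgeR 4.0.16 in R 4.3.3, scaled with TMM factors and tested with the robust quasi-likelihood test, treatment as the only term, on the whole table. The members, lists and tests were chosen with earlier results of these data known. The naming rule took every called member, the 4 uncalled members with the largest change, and up to 4 called genes of each companion list, or its 2 most abundant genes where fewer than 2 were called. Alternatives were RLE or no composition factors, no filter or 1 CPM in 4 libraries, DESeq2 1.42.0, limma-voom 3.58.1, leaving out each library, and leaving out vehicle replicate 4 with S1P replicate 5. The fit was tested on simulated counts, where 9.6% of calls were false. Transcript lengths and GC content came from GENCODE M21, found for all 36 genes, and need not match the gene models behind the deposited counts. Near copies were sought with BLAST 2.17.0 (95% identity over 200 bases). Iars has a processed pseudogene copy, Gm4849 (96.014% identity over 1656 bases), and 1326 bases of Aars lie in an annotated transcript of Exosc6; neither copy has a row among the counts used here. The result of 1 gene of the partner list is not reported here.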

Additional observations from a re-analysis of the deposited data

Results flagged for a closer look

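In 6 cases a single library lay far from the other 3 of its group, among 72 groups examined (36 genes in 2 groups), where chance alone flags about 1 in 20 groups. Vehicle replicate 4 accounted for 4 of the 6. It held 60.6 CPM of Farsa, 12.4 CPM of Sars2 and 23.0 CPM of Vars2, each above the other vehicle libraries, and 50.3 CPM of Farsb, below them. Tars was low in vehicle replicate 1, at 77.1 CPM, and Sars2 was low in S1P replicate 7, at 2.64 CPM.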

How the results depend on the processing

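Over the 8 leave-one-out fits, the genes called higher ranged from 333 to 1133 (663 with all libraries), those called lower from 101 to 723 (344), the cytosolic synthetases called higher from 2 to 11 (8) and the dual ones from 0 to 1 (1). Without both vehicle replicate 4 and S1P replicate 5, 1178 genes were higher and 934 lower, and DESeq2 called 804 lower. None of the listed cytosolic or mitochondrial synthetases was called lower, and none of the listed mitochondrial ones higher, in any alternative run. The cytosolic minus mitochondrial median log2 fold change, 0.42, ranged from 0.34 to 0.47. Mars missed the threshold with RLE factors (adjusted p = 0.0617) and with the 1 CPM filter (adjusted p = 0.0504), and Farsb with no filter (adjusted p = 0.0577). Of 540 values of the 36 genes under the 15 alternatives, 469 kept direction and side of the threshold, 35 lost the call, 8 gained one and 28 changed sign.

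Sign changes touched genes that were not called, whose leave-one-out log2 fold changes ranged from -0.27 to 0.07 in Farsa, -0.01 to 0.19 in Kars, -0.11 to 0.66 in Vars, -0.05 to 0.15 in Wars, -0.58 to 0.13 in Aars2, -0.35 to 0.12 in Cars2, -0.09 to 0.01 in Fars2, -0.13 to 0.03 in Hars2, -0.03 to 0.22 in Nars2, -0.61 to 0.75 in Sars2, -0.07 to 0.20 in Tars2, -0.15 to 0.02 in Wars2, -0.07 to 0.09 in Eif4b, -0.15 to 0.19 in Ddit3 and -0.23 to 0.12 in Aimp2. Without both vehicle replicate 4 and S1P replicate 5 the value was 0.05 in Farsa, 0.25 in Kars, 0.70 in Vars, 0.02 in Aars2, 0.15 in Cars2, 0.70 in Sars2, 0.19 in Ddit3 and 0.11 in Aimp2. With limma-voom it was 0.01 in Hars2, 0.12 in Sars2, -0.00 in Eif4b, 0.01 in Ddit3 and 0.02 in Aimp2. Hars2 was at 0.00 with no filter, and Eif4b at -0.02 with RLE factors and with DESeq2 and at -0.00 with the 1 CPM filter. The cause was not tested. No paired analysis was possible because the vehicle replicates are numbered 1 to 4 and the S1P replicates 5 to 8, so the groups share no number.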
